A study of Rattus norvegicus and Mus musculus with 24 samples.

Results

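The complement genes described here are C3, CFB, CFI, C1QA, C1QB, C1QC, C1S, C1R and CD55, taken as the rows of the deposited mouse and rat kidney tables that carry these symbols. All 9 were among the 17376 symbols of the mouse table. Of the 9, 8 were among the 14931 symbols of the rat table, and CFI was not analysed in the rat. The study compared animals lacking Ctns, the gene for the lysosomal cystine exporter whose loss causes cystinosis, with control littermates. It describes knockout and control animals as matched for age and sex. The mice had a C57BL/6 background and formed a Ctns KO and a Ctns WT group of 4 each, and the rats had a Sprague-Dawley background and formed a Ctns KO and a Ctns WT group of 8 each. The age of each sequenced animal and the sex of the rats are not given in the sources used here. The reporting summary of the study describes its mice as all female, at several ages. Its methods say so only for cultures of primary cells and mechanistic work. No treatment is named for any of the 24 animals, and how Ctns was disrupted is not described in the sources used here. The labels call the tissue kidney cortex, the cells proximal tubule cells and the starting material microdissected proximal tubules. The methods of the study name kidney cortex as the source of the sequenced RNA, and microdissected tubules for its microarrays.

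Complement is a cascade of plasma and tissue proteins that tags cells and debris and recruits phagocytes. C1q, built from the products of C1QA, C1QB and C1QC, recognises its targets and activates the proteases C1r and C1s, which start the classical pathway. C3 is the component on which all routes converge, factor B (CFB) forms the alternative pathway convertase that amplifies C3 cleavage, factor I (CFI) degrades active C3b and C4b, and CD55 is a membrane protein that speeds the decay of convertases. In kidney, C1q is known as a macrophage product, whereas C3 and factor B can also be made by tubular epithelium, and C1r and C1s by fibroblasts and epithelium.

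RefSeq promoter sequences of the rat build GRCr8, each from 250 bases before to 50 bases after the annotated start, were held for 6 of the 9 genes (C3, C1qa, C1qb, C1r, Cd55 and Cfi). Those of C3 and of the C1q genes C1qa and C1qb are shown because the results below turn on these transcripts. C3 lies at chr9:2201290-2201589, C1qa at chr5:154419884-154420183 and C1qb at chr5:154407778-154408077, all on the minus strand. Each is printed 5′ to 3′ on the gene strand, with motif matches on either strand in capitals.
C3: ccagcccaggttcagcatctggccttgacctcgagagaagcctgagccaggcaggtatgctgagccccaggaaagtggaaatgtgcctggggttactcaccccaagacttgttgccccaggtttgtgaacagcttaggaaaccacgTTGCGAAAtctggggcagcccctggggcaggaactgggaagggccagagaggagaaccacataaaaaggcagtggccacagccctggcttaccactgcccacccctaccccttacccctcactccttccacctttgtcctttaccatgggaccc
C1qa: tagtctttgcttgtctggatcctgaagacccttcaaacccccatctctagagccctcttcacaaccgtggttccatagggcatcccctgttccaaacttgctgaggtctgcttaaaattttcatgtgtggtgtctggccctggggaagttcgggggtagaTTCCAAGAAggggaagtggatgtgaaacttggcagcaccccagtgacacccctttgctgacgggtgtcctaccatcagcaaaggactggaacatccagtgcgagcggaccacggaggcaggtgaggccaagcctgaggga
C1qb: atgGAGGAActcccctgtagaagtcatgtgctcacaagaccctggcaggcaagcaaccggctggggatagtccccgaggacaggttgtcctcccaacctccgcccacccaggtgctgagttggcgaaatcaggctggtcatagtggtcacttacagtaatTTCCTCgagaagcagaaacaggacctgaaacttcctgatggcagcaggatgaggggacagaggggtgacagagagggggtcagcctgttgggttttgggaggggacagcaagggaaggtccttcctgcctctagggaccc
The letters searched were those of AP-1 (TGANTCA), STAT (TTCNNNGAA), PU.1 (GAGGAA), kappaB (GGGANTTTC), C/EBP (TTGCNNAA) and IRF (GAAANNGAA). C3 held a C/EBP match at -104 from the start, C1qa a STAT match at -90, and C1qb PU.1 matches at -247 and -90. C1r held a PU.1 match at -55 and a C/EBP match at -83, and Cd55 and Cfi held none of the 6 motifs. Over 33469 rat promoters of this length, 10.6% held the C/EBP letters, 8.87% the STAT letters, 27.6% the PU.1 letters, 7.33% the AP-1 letters, 1.15% the kappaB letters and 9.71% the IRF letters. The tables measure transcripts only, so no factor binding was read here.

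In the mouse build mm10, the C1q genes stood side by side on chromosome 4, within 18.7 kb from the start of C1qb to the end of C1qa (C1qb at chr4:136880129-136886187, C1qc at chr4:136889804-136893065 and C1qa at chr4:136895917-136898803, all on the minus strand). The mouse carries paired copies of C1r and C1s within 123.7 kb on chromosome 6, namely C1ra, C1rb, C1s1 and C1s2. C3 (chr17:57203970-57228136) and Cfb (chr17:34856374-34862518) were both on chromosome 17, Cfi (chr3:129835884-129875332) on chromosome 3, and Cd55 (chr1:130439027-130462744) with its copy Cd55b on chromosome 1. Rows C1R, C1S and CD55 of the mouse table held values ending in 0.5 of a read in 4, 4 and 6 of 8 animals. Which copy of C1r, C1s or Cd55 the mouse reads came from therefore cannot be told, and mouse values of these 3 symbols are uncertain for that reason.

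Total reads per library ranged from 19309449 to 44449859 in mice and from 24684097 to 40629873 in rats. In the mice, CTNS fell from 43.1 ± 3.58 CPM (counts per 1000000 table reads, SD, n = 4) in Ctns WT to 16.4 ± 0.663 CPM in Ctns KO. In the rats, CTNS was 21.6 ± 2.49 CPM in Ctns WT and 19.8 ± 2.2 CPM in Ctns KO (SD, n = 8), with overlapping groups, so its level did not tell the rat genotypes apart (log2 fold change -0.22 ± 0.08 SE, edgeR adjusted p = 0.0511, or 0.0251 with the number range as a covariate). The Ctns KO mouse 3 stood apart in XIST, at 2.54 CPM against 892 to 1121 CPM in the other 7 mice. This mouse may therefore differ from them in sex, despite the described matching and the description of the mice as female. Results are also given without it. The rats carry numbers 17 to 32, whose meaning is not labelled. Rats 17 to 24 and rats 25 to 32, with 4 animals of each genotype in either range, are given separately, and what sets the ranges apart was not tested.

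In Ctns KO mice the 3 C1q subunits, C3, CFI and C1S rose. Levels per kilobase of annotated exon were computed for the 6 members that stand for 1 mouse gene each (not for C1R, C1S and CD55). C1qb stood at 39.7 ± 4.18 CPM per kb, C1qa at 36.9 ± 3.99 and C3 at 30.5 ± 4.54 in Ctns KO (SD, n = 4). C1qa overlapped both neighbours in this order, whereas C1qb and C3 did not overlap. The corresponding Ctns WT levels were 21 ± 1.84 for C1qb, 18.9 ± 1.28 for C1qa and 10.3 ± 4.07 for C3. C1qc reached 29.3 ± 2.75 against 15.4 ± 2.28, Cfi 10.6 ± 0.520 against 6.71 ± 0.645, and Cfb, the lowest of these 6, 4.99 ± 0.436 against 5.87 ± 1.07 CPM per kb. On the deposited scale, limma called 6 of 9 members higher and 0 lower at an adjusted p under 0.05, where 3.50% of the 17376 symbols were called higher and 0.817% lower. The 3 members outside the call had unadjusted p of 0.00348 (C1R), 0.0639 (CD55) and 0.0801 (CFB). edgeR on the reads recovered from the same values called 7 of 9 higher, C1R being the addition, and 0 lower, against 6.06% and 2.85% of symbols (CFB, the 1 member below 0, had an unadjusted p of 0.0189). In 7 of 9 members every Ctns KO mouse lay above every Ctns WT mouse, a separation seen in 7.66% of all symbols, with 3.92% separated the other way.

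**Figure D1:**
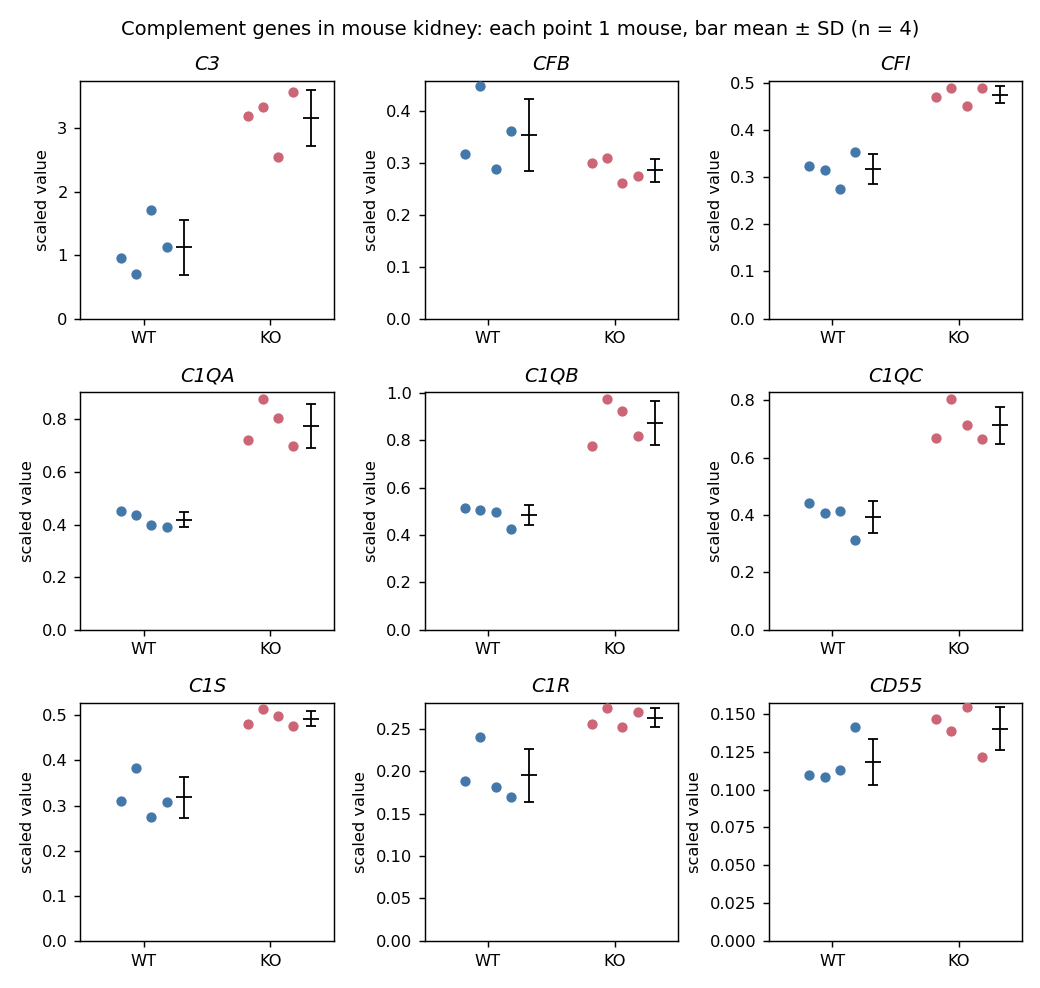
Deposited scaled value (reads relative to the upper quartile of each library, vertical axis from 0) of the 9 complement genes in each Ctns WT and Ctns KO mouse; points are animals and bars show the mean ± SD (n = 4). C3, CFI, C1R, C1S and the C1Q subunits separate completely, whereas CFB and CD55 overlap.

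C1QA, which encodes the A chain of C1q, had scaled values of 0.450, 0.436, 0.397 and 0.390 in the Ctns WT mice 1, 2, 4 and 7. In the Ctns KO mice 3, 5, 6 and 8 it had 0.720, 0.879, 0.807 and 0.697, so the lowest Ctns KO animal was well above the highest Ctns WT animal. Its log2 fold change was 0.32 ± 0.04 (SE) on the log2(value + 1) scale, which understates changes of low values (limma adjusted p = 0.00666). On recovered reads the change was 0.88 ± 0.08, or 1.83-fold (edgeR adjusted p = 2.57e-05). C1QB and C1QC, the other chains, changed by nearly the same amount, at 0.83 ± 0.09 and 0.84 ± 0.10 on recovered reads (edgeR adjusted p = 5.24e-05 and 0.000177). Without Ctns KO mouse 3 the changes of C1QA, C1QB and C1QC on recovered reads were 0.90, 0.88 and 0.87, and all 3 stayed called in both tests, as did C1S and CFI.

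The proteases that C1q activates moved less. C1S was 0.310, 0.382, 0.275 and 0.308 in the Ctns WT mice and 0.481, 0.514, 0.498 and 0.476 in the Ctns KO mice, in order of animal number. The groups did not overlap, and the change on recovered reads was 0.62 ± 0.09 on the log2 scale (edgeR adjusted p = 0.000827, limma adjusted p = 0.012). C1R ran from 0.170 to 0.241 in Ctns WT and from 0.252 to 0.274 in Ctns KO, and its call depended on the test (limma adjusted p = 0.0636, edgeR adjusted p = 0.0267). Without Ctns KO mouse 3 neither test called C1R (limma adjusted p = 0.12, edgeR adjusted p = 0.0557), and without Ctns WT mouse 2 limma called it (adjusted p = 0.0142).

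C3 showed the largest change of the 9 in mice. Its scaled value was 0.956, 0.698, 1.71 and 1.13 in the Ctns WT mice and 3.19, 3.33, 2.54 and 3.57 in the Ctns KO mice. The Ctns WT animals varied among themselves more than 2-fold, yet all lay below the lowest Ctns KO animal. The log2 fold change was 0.98 ± 0.15 on the deposited scale (limma adjusted p = 0.0163) and 1.46 ± 0.28 on recovered reads, or 2.76-fold (edgeR adjusted p = 0.0234). Leaving out Ctns KO mouse 3 gave 0.98 with a limma adjusted p of 0.046 and 1.46 with an edgeR adjusted p of 0.0559, and leaving out Ctns KO mouse 5 gave a limma adjusted p of 0.0515. CFB, which works together with C3 in the alternative pathway, did not pass either test: it was 0.260 to 0.309 in Ctns KO and 0.288 to 0.448 in Ctns WT, with a change of -0.32 ± 0.12 on recovered reads (edgeR adjusted p = 0.126).

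Of the regulators, CFI rose and CD55 did not pass the test. CFI, the soluble protease that inactivates C3b, was 0.323, 0.316, 0.275 and 0.354 in the Ctns WT mice and 0.471, 0.489, 0.451 and 0.489 in the Ctns KO mice. The change on recovered reads was 0.56 ± 0.09, or 1.48-fold (edgeR adjusted p = 0.000923, limma adjusted p = 0.00855). CD55 ran from 0.108 to 0.141 in Ctns WT and from 0.121 to 0.154 in Ctns KO, with a change of 0.21 ± 0.13 on recovered reads (edgeR adjusted p = 0.352).

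In Ctns KO rats 7 of the 8 members measured were higher than in Ctns WT rats and CD55 was not called, over all 16 animals (edgeR). Against that, 15.2% of the 11584 symbols tested were called higher and 12.3% lower. CFB and C1QB separated the genotypes completely, so that 2 of 8 members did, where 5.21% of symbols had every Ctns KO rat above every Ctns WT rat and 0.950% the reverse. Among Ctns KO rats, the mean CPM of each of these 7 members was higher in rats 25 to 32 than in rats 17 to 24. In rats 17 to 24, 4 of 8 members were called higher and 0 lower, against 5.07% and 2.19% of 11610 symbols. At an unadjusted p under 0.05 the other 4 also passed, 3 of them higher and CD55 lower. Without Ctns KO rat 22 or 24 the calls numbered 2, C1QA and C1QC being those lost in both. In rats 25 to 32, 7 of 8 were called higher and 1 (CD55) lower, against 21.8% and 22.1% of 11633 symbols.

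**Figure D2:**
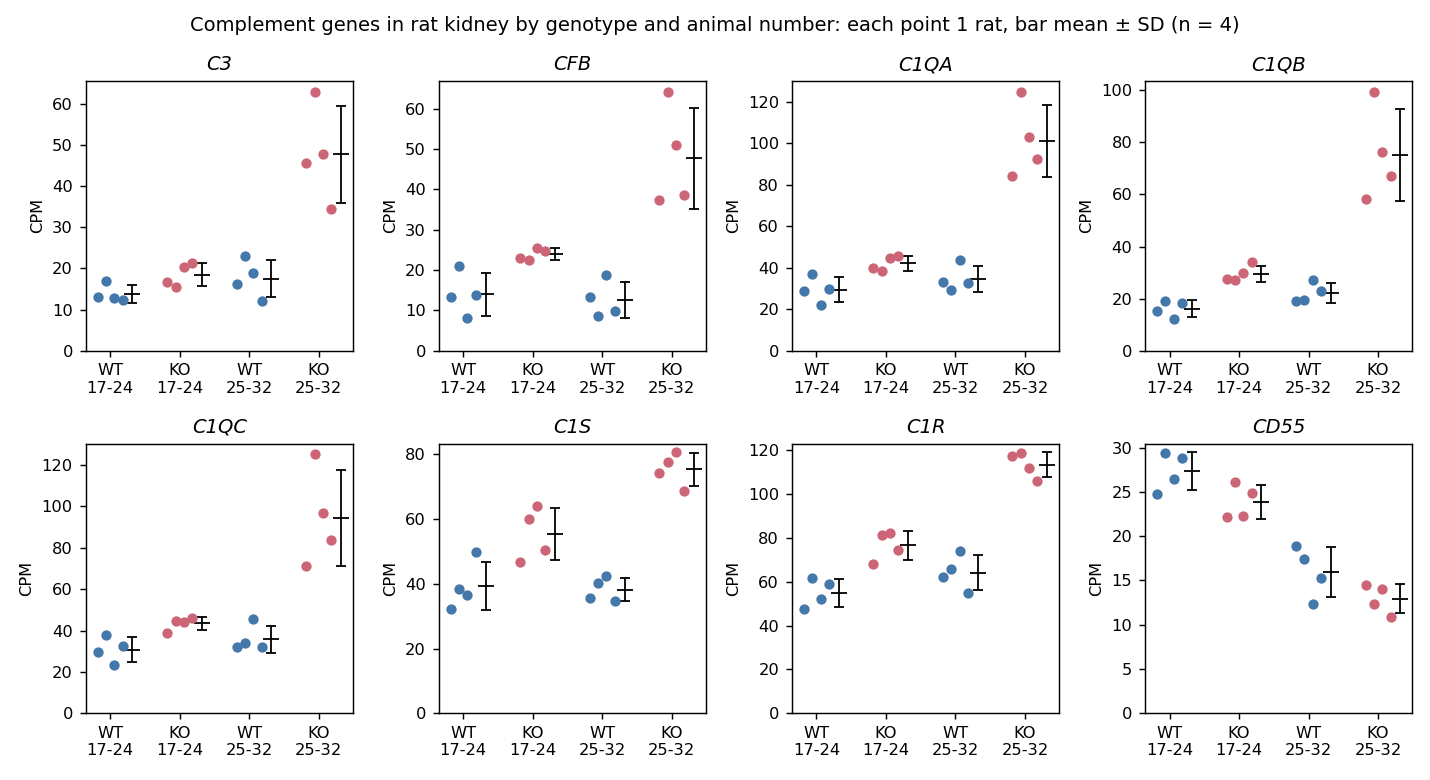
CPM (counts per 1000000 table reads, vertical axis from 0) of the 8 complement genes in each rat, by genotype and animal number; points are animals and bars show the mean ± SD (n = 4). Ctns KO rats 25 to 32 hold the highest values of all members except CD55, which is lower in rats 25 to 32 of both genotypes.

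C1QA was 28.9, 36.8, 21.9 and 29.9 CPM in the Ctns WT rats 17, 19, 21 and 23, and 40.1, 38.2, 44.6 and 45.7 CPM in the Ctns KO rats 18, 20, 22 and 24. In the second range it was 32.9, 29.1, 43.9 and 32.5 CPM in the Ctns WT rats 25, 27, 29 and 31, and 84.4, 124.8, 102.8 and 92.4 CPM in the Ctns KO rats 26, 28, 30 and 32. The Ctns WT animals of both ranges overlapped, whereas Ctns KO rats of the second range lay above all those of the first. The log2 fold change was 0.51 ± 0.12 in rats 17 to 24 (edgeR adjusted p = 0.0298) and 1.38 ± 0.15 in rats 25 to 32 (edgeR adjusted p = 5.02e-05). The first call was lost without rat 17, 18, 22, 23 or 24 (adjusted p up to 0.0916) and in the contrast taken from 1 fit of all 16 rats (edgeR adjusted p = 0.0545).

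C1QB was 15.2, 19.2, 12.1 and 18.3 CPM in Ctns WT and 27.6, 27.04, 29.8 and 33.9 CPM in Ctns KO rats of the first range. In rats 25 to 32 it was 18.9, 19.3, 27.04 and 22.9 CPM in Ctns WT against 58.3, 99.2, 76.2 and 67.2 CPM in Ctns KO. Genotypes did not overlap in either range, and the change was 0.86 ± 0.13 in the first and 1.60 ± 0.17 in the second (edgeR adjusted p = 0.00199 and 4.99e-05). C1QC followed, at 30.9 ± 5.97 against 43.5 ± 3.12 CPM in rats 17 to 24 and 35.9 ± 6.50 against 94.3 ± 23.2 CPM in rats 25 to 32 (Ctns WT against Ctns KO, SD, n = 4), with changes of 0.48 ± 0.11 and 1.23 ± 0.17 (edgeR adjusted p = 0.0219 and 0.000254). The first call was lost without Ctns KO rat 20, 22 or 24 (adjusted p up to 0.0712) and in the 1 fit of all 16 rats (edgeR adjusted p = 0.0952).

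The C1q chains did not keep the same proportion to each other in the rat genotypes. Ctns WT rats had 0.594 C1QB reads per C1QA read (geometric mean, range 0.522 to 0.705) and Ctns KO rats 0.719 (range 0.667 to 0.795, n = 8 each). The difference of 0.28 on the log2 scale had an exact two-sided permutation p of 0.000932, or 0.00746 adjusted over 8 ratio tests. It was 0.35 within rats 17 to 24, where the groups did not overlap (exact permutation p = 0.0286, the smallest that 4 against 4 allows, adjusted p = 0.114), and 0.21 within rats 25 to 32 (exact permutation p = 0.0571, adjusted p = 0.152). C1QC per C1QA read was 1.05 in Ctns WT and 0.976 in Ctns KO rats (exact permutation p = 0.0996), and without Ctns KO rat 20 the log2 difference was -0.14 (exact permutation p = 0.00684). In mice the C1QB to C1QA ratio was 1.16 in Ctns WT and 1.13 in Ctns KO, a difference of -0.04 (exact permutation p = 0.486). The mouse ratio of C1QC to C1QA was 0.936 and 0.921 (exact permutation p = 0.8).

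**Figure D3:**
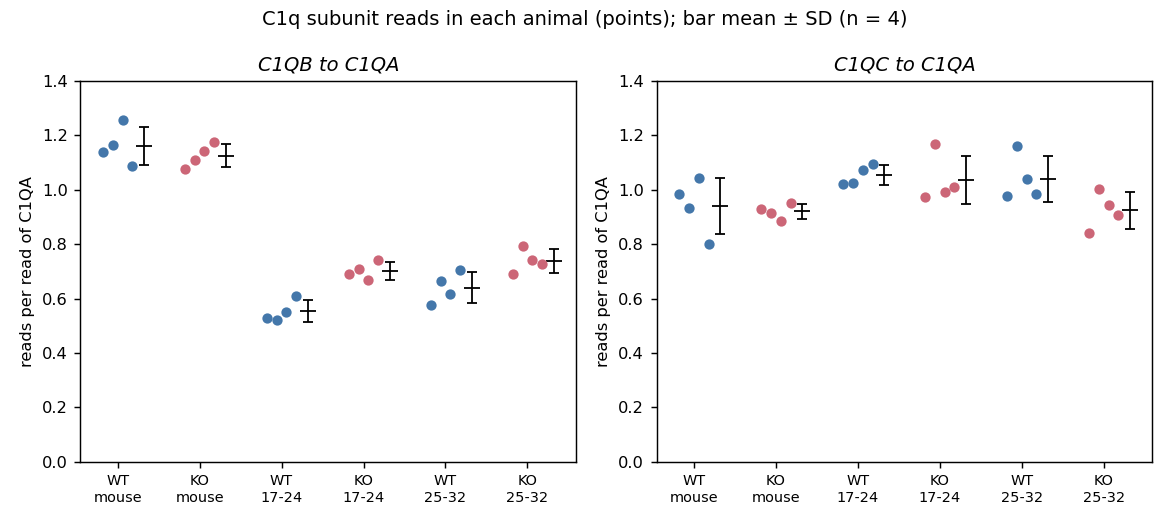
Reads of C1QB and of C1QC per read of C1QA (vertical axes from 0) in each mouse and each rat by number range; points are animals and bars show the mean ± SD (n = 4). The C1QB ratio is higher in Ctns KO than in Ctns WT rats 17 to 24 without overlap, while the 4 mouse values of either genotype overlap.

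C1R was 54.9 ± 6.41 CPM in Ctns WT and 76.5 ± 6.56 CPM in Ctns KO rats 17 to 24, and 64.1 ± 7.95 and 113.3 ± 5.87 CPM in rats 25 to 32 (SD, n = 4). Genotypes did not overlap in either range, and the changes were 0.46 ± 0.08 and 0.66 ± 0.08 on the log2 scale (edgeR adjusted p = 0.00278 and 0.000147). C1S was 32.3, 38.2, 36.4 and 49.6 CPM in Ctns WT and 46.7, 59.9, 64.0 and 50.4 CPM in Ctns KO rats of the first range, with 1 Ctns WT animal (rat 23) inside the Ctns KO values (edgeR adjusted p = 0.081). In rats 25 to 32 it was 38.2 ± 3.62 and 75.2 ± 5.16 CPM, a change of 0.82 ± 0.07 (edgeR adjusted p = 2.15e-05).

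C3 in Ctns WT rats was 13.0, 17.1, 12.8 and 12.4 CPM in the first range and 16.1, 22.96, 18.8 and 12.1 CPM in the second. Ctns KO rats had 16.7, 15.5, 20.4 and 21.4 CPM in the first range and 45.7, 63.0, 47.8 and 34.5 CPM in the second. The genotypes overlapped in rats 17 to 24 (log2 fold change 0.41 ± 0.12, edgeR adjusted p = 0.0552) and were apart in rats 25 to 32 (1.29 ± 0.20, edgeR adjusted p = 0.000471). CFB, the alternative pathway protease, was 13.2, 21.04, 8.11 and 13.8 CPM in Ctns WT and 22.9, 22.4, 25.6 and 24.7 CPM in Ctns KO rats of the first range. In the second range it was 13.3, 8.61, 18.6 and 9.83 CPM in Ctns WT and 37.3, 64.0, 50.9 and 38.6 CPM in Ctns KO. It was the member with the largest change in rats 25 to 32, at 1.76 ± 0.24 (edgeR adjusted p = 0.000263), and changed by 0.76 ± 0.23 in rats 17 to 24 (edgeR adjusted p = 0.0952).

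CD55 went the other way. It was 24.7, 29.4, 26.4 and 28.8 CPM in Ctns WT and 22.2, 26.1, 22.3 and 24.9 CPM in Ctns KO rats 17 to 24, and 18.8, 17.4, 12.4 and 15.3 against 14.4, 12.3, 14.1 and 10.9 CPM in rats 25 to 32. Within each genotype all rats 17 to 24 lay above all rats 25 to 32, a gap wider than that between genotypes. The genotype change was -0.21 ± 0.07 in the first range (edgeR adjusted p = 0.0969) and -0.46 ± 0.13 in the second (edgeR adjusted p = 0.0168), and without Ctns WT rat 25 it was -0.39 (edgeR adjusted p = 0.0528). Pooled over the ranges it was -0.31 ± 0.20 (edgeR adjusted p = 0.266), and with the range as a covariate -0.34 ± 0.08 (edgeR adjusted p = 0.0031). Summed podocyte and endothelial marker reads, 7 of 8 listed genes being in the rat table, likewise ran from 983 to 1186 CPM in rats 17 to 24 and from 615 to 811 CPM in rats 25 to 32. Their part in the CD55 values was not tested.

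**Figure D4:**
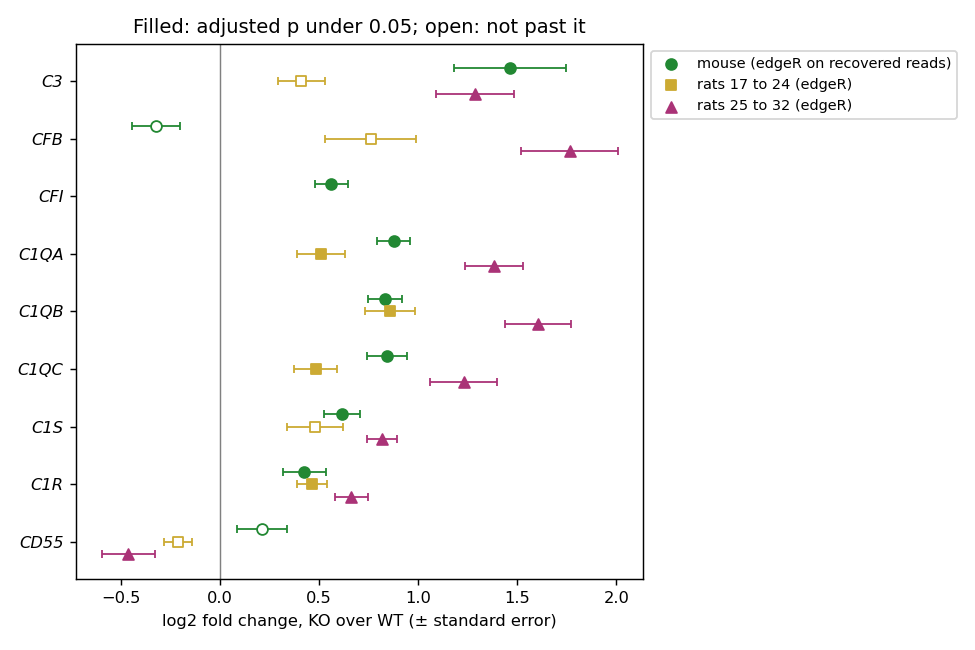
Log2 fold change of Ctns KO over Ctns WT (horizontal axis, bars ± SE) for each complement gene in mice (recovered reads, n = 4 per group) and in rats 17 to 24 and 25 to 32 (n = 4 per group in each), all by edgeR; filled symbols have an adjusted p under 0.05. C3, C1R, C1S and the C1Q subunits lie above 0 in all 3 sets, and CFB lies at -0.32 in mice and at 0.76 and 1.76 in rats.

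The difference between the ranges was itself tested in a fit of all 16 rats with a genotype by range term (edgeR). It was positive and called for C1QA (0.88 ± 0.21, edgeR adjusted p = 0.0123), C3 (0.88 ± 0.25, adjusted p = 0.0301), C1QC (0.75 ± 0.23, adjusted p = 0.0356) and C1QB (0.75 ± 0.23, adjusted p = 0.0413), that is 4 of 8 members, against 7.10% of 11839 symbols called positive and 7.64% negative. The term was 1.01 ± 0.36 for CFB (edgeR adjusted p = 0.0653), 0.34 ± 0.16 for C1S (0.152), 0.20 ± 0.12 for C1R (0.244) and -0.25 ± 0.15 for CD55 (0.257). The call for C1QA held in each of the 16 fits that left out a rat, while between 1 and 5 members were called in them. C3 lost the call without rat 18, 19, 20, 25 or 28 (adjusted p up to 0.063), C1QB lost it in 10 of the 16 fits (up to 0.0906) and C1QC in 11 (up to 0.0763).

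A genotype by species term over the 11216 symbols present in both tables, on values scaled alike, was called for CFB (0.50 ± 0.13, a larger Ctns KO over Ctns WT change in rats, limma adjusted p = 0.0357) and C3 (-0.68 ± 0.18, limma adjusted p = 0.0398), that is 1 member in each direction, where 1.80% of symbols were called positive and 1.36% negative. For CFB the term was also called on reads (1.69, edgeR adjusted p = 0.0135), whereas for C3 it was not (-0.45, edgeR adjusted p = 0.638). Leaving out single mice left 0 to 2 of these calls, with adjusted p for CFB between 0.0489 and 0.0752. For C1QA, C1QB and C1QC the term was 0.19 ± 0.20, 0.19 ± 0.19 and 0.16 ± 0.19, and none was called (limma adjusted p = 0.652, 0.625 and 0.68). The species fit held no term for the number range. Its rat change is therefore an average over both ranges, between which these C1Q changes differed.

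Genes whose profile over animals was most like that of a member were ranked by the root mean square difference of standardised log2 CPM, a description in which all points share their libraries. Over 16 rats and 10827 symbols, C1QA was nearest to C1QC (0.136) and C1QB (0.146), then to FERMT3, TYROBP and TGFB1. C3 was nearest to TPM3 (0.226), NCF1C, PTPN6, CSF1R and CAP1, and C1S to the ferroxidase gene CP (0.242), ICAM1, OLFML3, UBE2C and SPC24. CD55 stood apart from the other members, with UGT8 (0.250), OLFM1, PODXL, ROBO2 and PLCE1 as its nearest genes. PODXL is known as a podocyte surface gene. Over the 8 mice and 12495 symbols, C1QA was nearest to MMP14 (0.099), C3 to SERPINA10 (0.119), and C1S to COL15A1 (0.114), with COL3A1 also among its 5 nearest.

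Beyond the 9 members, 53 other complement genes were listed. In mice 42 of them were in the table, and 8 were called higher and 0 lower by limma, with 4 lower at an unadjusted p under 0.05 (median log2 fold change 0.00, as over all symbols). edgeR on recovered reads tested 30 and called 11 higher and 2 lower (median log2 fold change 0.25, against -0.01 over all symbols). Over all symbols, limma called 3.50% higher and 0.817% lower, and edgeR 6.06% and 2.85%. Among the 30 tested by edgeR, the highest change was that of MASP1, the lectin pathway protease, from 0.944 ± 0.304 to 5.28 ± 1.25 CPM (SD, n = 4, 2.38 ± 0.23 on the log2 scale, edgeR adjusted p = 3.25e-05, limma adjusted p = 0.0101). SERPING1, the C1 inhibitor that blocks C1r and C1s, rose from 54.3 ± 9.89 to 95.9 ± 6.79 CPM (edgeR adjusted p = 0.00263, limma adjusted p = 0.0213). C7, a component of the membrane attack complex, rose from 4.06 ± 0.944 to 9.24 ± 1.62 CPM (edgeR adjusted p = 0.00116), and properdin (CFP), which stabilises the alternative convertase, from 4.97 ± 0.462 to 7.79 ± 0.404 CPM (edgeR adjusted p = 0.00546). With single mice left out, limma kept the call of MASP1 and CFP in all 8 fits and of SERPING1 and C7 in 4 of 8 each, with adjusted p up to 0.0629 and 0.0682. The lower ones on recovered reads were C8G (-0.56 ± 0.13) and C1RL (-0.37 ± 0.09), which limma did not call.

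In rats, edgeR tested 31 of the 53 and called 11 higher and 1 lower (median log2 fold change 0.33, against -0.02 over all symbols). Of all symbols tested, 15.2% were called higher and 12.3% lower. C4A, the classical pathway component cleaved by C1s, was 4.91 ± 1.13 CPM in Ctns WT and 15.2 ± 2.92 CPM in Ctns KO rats 17 to 24, and 7.92 ± 0.606 and 56.0 ± 10.7 CPM in rats 25 to 32 (SD, n = 4). Its change was 1.62 ± 0.16 and 2.66 ± 0.13 (edgeR adjusted p = 0.000105 and 3.81e-07), but 15 of its 16 values were not whole reads, so more than 1 gene may stand behind this symbol. SERPING1 rose from 45.2 ± 3.21 to 56.5 ± 4.87 CPM in rats 17 to 24 and from 55.5 ± 3.59 to 130.1 ± 20.6 CPM in rats 25 to 32 (edgeR adjusted p = 0.031 and 2.9e-05), the first call being lost in 5 of 8 fits without single rats. The receptor genes C5AR1, ITGAM and ITGB2, expressed by myeloid cells, were called higher in both ranges, ITGAM by 1.23 ± 0.20 and 1.51 ± 0.25 (edgeR adjusted p = 0.0029 and 0.000803). Of the terminal complex, C8B fell by 0.58 on the log2 scale over all rats (edgeR adjusted p = 0.0249). C6 of the same complex rose by 1.355 (edgeR adjusted p = 0.0127). With single rats left out, the call of C8B was lost in 2 of 16 fits (adjusted p up to 0.0577), and that of C6 held in all 16.

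By range, 7 of 31 other complement genes were called higher and 0 lower in rats 17 to 24 (edgeR, 3 lower at an unadjusted p under 0.05), where 5.07% and 2.19% of all symbols were. In rats 25 to 32, 14 of 32 were called higher and 3 lower (C8B, C1RL and C5), against 21.8% and 22.1% of all symbols. Without single rats the C1RL call was lost in 6 of 8 fits (edgeR adjusted p up to 0.118). The C5 call was lost in 5 of 8 (up to 0.12), and that of C8B held in all 8. SERPING1 and CFP were called higher in mice and in both rat ranges, and so was C5AR1. The fluid-phase regulator clusterin (CLU) was called higher in both rat ranges, by 0.21 ± 0.05 and 0.89 ± 0.10 (edgeR adjusted p = 0.0352 and 6.13e-05). In rats 17 to 24, leaving out single rats ended the call of CFP in 6 of 8 fits (adjusted p up to 0.13), of CLU in 6 (up to 0.126) and of C5AR1 in 5 (up to 0.128), whereas those of ITGAM and ITGB2 held in all 8.

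**Figure D5:**
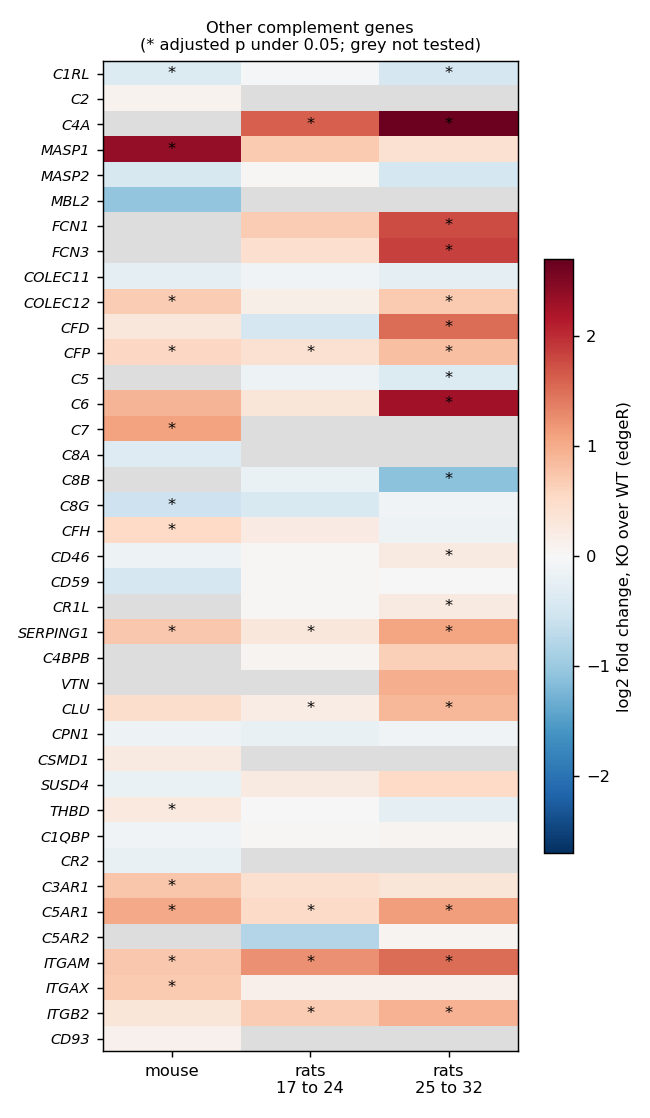
Log2 fold change of Ctns KO over Ctns WT (colour scale, edgeR) for the other complement genes tested in at least 1 of mice, rats 17 to 24 and rats 25 to 32; asterisks mark an adjusted p under 0.05 and grey cells were not tested. CFP, SERPING1, C5AR1 and ITGAM are marked in all 3 columns, and MASP1 is marked in mice.

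In bulk tissue, more cells of a type and more RNA per cell cannot be told apart, and markers of other cells moved with the complement genes. For the marker counts below, limma called 3.50% of all symbols higher and 0.817% lower in mice. The shares were 6.06% and 2.85% by edgeR on recovered mouse reads, and 15.2% and 12.3% by edgeR in all rats. Macrophage markers, 19 of 20 in the mouse table, were called higher for 12 in mice (limma, 7 without Ctns KO mouse 3, and 15 of 17 tested by edgeR), and their summed level ran from 374 to 429 CPM in Ctns WT and from 528 to 654 CPM in Ctns KO. In rats 12 of 17 tested macrophage markers were called higher and 1 lower. In rats 17 to 24, 7 of 17 were called higher and 0 lower (median log2 fold change 0.45), against 5.07% and 2.19% of all symbols. In rats 25 to 32, 13 were called higher and 1 lower (median 0.96), against 21.8% and 22.1%. The summed level, in which abundant genes weigh most, ran from 1427 to 1727 CPM in Ctns WT. It ran from 1468 to 1648 CPM in Ctns KO rats 17 to 24 and from 1753 to 2422 CPM in Ctns KO rats 25 to 32. TREM2, a lipid-sensing receptor of macrophages, changed by 1.74 ± 0.31 and 3.28 ± 0.20 in the rat ranges (edgeR adjusted p = 0.00496 and 1.85e-06), and CSF1R, the receptor that sustains macrophages, by 0.56 ± 0.07 and 0.90 ± 0.08 (edgeR adjusted p = 0.000335 and 2.27e-05).

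Fibroblast and matrix markers summed to 200 to 242 CPM in Ctns WT and 367 to 419 CPM in Ctns KO mice, with 5 of 14 called higher (limma). In rats 7 of 10 were called higher, and the sum ran from 280 to 354 CPM in Ctns WT and from 378 to 618 CPM in Ctns KO. Tubular injury genes were called higher for 7 of 10 in mice and 8 of 9 in rats, among them SPP1, the osteopontin gene (1.02 ± 0.12 in mice on recovered reads and 3.59 ± 0.35 in rats). Lymphocyte markers were called higher for 0 of 12 in mice (limma, 0 also at an unadjusted p under 0.05, and 0 by edgeR) and 8 of 9 in rats, and acute phase genes for 1 of 10 and 6 of 8. Proximal tubule markers, present in all samples at the highest sums of any list, were called lower for 0 of 12 in mice (limma, 2 at an unadjusted p under 0.05, and 2 by edgeR) and 7 of 10 in rats, where they summed to 23970 to 31550 CPM in Ctns WT and 18050 to 22380 CPM in Ctns KO. In mice they summed to 26980 to 32410 CPM in Ctns WT and 24590 to 26910 CPM in Ctns KO. Only 1 of the 12 mouse changes was above 0 (limma). Distal nephron markers, which proximal tubules should lack, summed to 7908 to 9190 CPM in Ctns WT and 9741 to 10690 CPM in Ctns KO mice. Of these, 0 of 7 were called in mice (limma), and 2 of 5 were called higher in all rats. Their sums in rats 17 to 24 were 4195 to 4692 CPM in Ctns WT and 4395 to 4863 CPM in Ctns KO. In rats 25 to 32 they were 2833 to 3545 CPM in Ctns WT and 4382 to 5224 CPM in Ctns KO. Neutrophil markers summed to under 4 CPM in every animal. The part of these markers in the complement values was not tested.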

How the data were processed

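Stranded poly(A) mRNA libraries (TruSeq) of kidney from 8 mice and 16 rats were sequenced as paired ends. The submitters' processing notes name bcl2fastq 2.20, STAR 2.7.3, DESeq2 1.24.0 and R 3.6.1 and the builds mm10 and rn5; the counter and annotation are not given in the sources used here. The authors deposited the mouse table as a scaled signal, in which each value equals reads plus 0.5 over the upper quartile of its library; reads recovered from it were whole, within 0.01, for 98.99% of values. The rat table, as deposited, holds estimated counts, which are reads with a constant added; 97.72% were whole after its removal, and values were rounded for testing. Symbols that were not whole (317 in mice, 556 in rats) appear to average several genes.

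Mouse values were tested as log2(value + 1) with limma 3.58.1 (trend, robust, no filter on low values), rat counts with edgeR 4.0.16 (quasi-likelihood, TMM, low counts filtered), in R 4.3.3; p-values were Benjamini-Hochberg adjusted over all symbols tested, with a threshold of 0.05. The SE of an edgeR change was taken from its F statistic. CPM is recovered reads per 1000000 reads of the table. Alternatives were edgeR and DESeq2 1.42.0 on recovered reads, another pseudocount, filter, normalization or limma-voom, the number range as covariate, and each animal left out. C1Q ratios (0.5 added to each count) were compared by exact permutation tests in SciPy 1.17.1. Steps were tested on simulated data.

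Groups came from the genotype labels. The members and gene lists were chosen with earlier results of these data known. Named genes were all members, some of the called genes among the listed complement genes, and some genes of the marker lists. Likeness neighbours are taken from the 5 nearest symbols with a mean of at least 1 CPM. Libraries of 1 group differed by more than counting noise in every pair, the smallest chi-square per degree of freedom being 9.25. Nothing says whether libraries are separate litters or batches, so p-values measure the spread between these animals. Depth is given in the report.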

Additional observations from a re-analysis of the deposited data

Results flagged for a closer look

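Of 66 groups of member values examined for an animal far from the others, 4 had one, and chance gives about 1 in 20. C1QB in Ctns WT mouse 7 had a scaled value of 0.4245, below the other 3 at 0.498 to 0.512, and CD55 in the same mouse had 0.1412, above the others at 0.108 to 0.113. C3 in Ctns WT rat 19 was 17.08 CPM, above the others of its range at 12.4 to 13 CPM. C1QC in Ctns WT rat 29 was 45.58 CPM, above the others of its range at 32 to 33.8 CPM.

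The genotype effect differed between rats 17 to 24 and rats 25 to 32 by a tested interaction (edgeR) for C1QA (0.877, adjusted p = 0.0123), C3 (0.880, adjusted p = 0.0301), C1QC (0.751, adjusted p = 0.0356) and C1QB (0.752, adjusted p = 0.0413). It differed between species (limma) for C3 (-0.675, adjusted p = 0.0398) and CFB (0.496, adjusted p = 0.0357). The C3 difference was not called on reads (edgeR adjusted p = 0.638, limma-voom 0.458) or with a pseudocount of 0.1 (0.32), and was lost in 6 of 8 fits without single mice. That of CFB was called in these other fits (adjusted p 0.0135 to 0.0279) and lost in 7 of 8 fits without single mice (up to 0.0752). The labels do not say what sets the ranges apart, and the cause was not tested.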

How the results depend on the processing

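Over 709 member results under alternatives, 636 kept their direction and side of the threshold, 56 lost a call, 17 gained one and 0 changed sign. In mice, symbols called numbered 751, against 1198 by edgeR and 1520 by DESeq2 on recovered reads and 352 to 683 with single mice left out; other complement genes called numbered 13, 15 and 5 to 8. In rats 17 to 24, DESeq2 called 7 members; leaving out single rats gave 2 to 6 members, 504 to 930 symbols and 3 to 7 other complement genes. For the genotype by range term these were 1 to 5, 1010 to 2392 and 5 to 9. For the species term, edgeR, limma-voom and a pseudocount of 0.1 each called 1 member (CFB) and 1, 0 and 0 other complement genes, and leaving out single mice gave 0 to 2 members, 181 to 446 symbols and 2 to 4 other complement genes. With single animals left out, the log2 difference of C1QC to C1QA ran from -0.098 to 0.029 in mice (0.001 and 0.029 changed sign), from -0.136 to -0.069 in rats (called without Ctns KO rat 20 only) and from -0.087 to 0.001 in rats 17 to 24, where 0.001 changed sign. That of C1QB to C1QA ran from -0.075 to -0.005 in mice and from 0.251 to 0.312 in rats, and from 0.318 to 0.394 in rats 17 to 24 at an exact permutation p of 0.0571, the smallest that 3 against 4 allows. Leaving out an animal lowered the number of calls in some fits and raised it in others. In rats 17 to 24 the 504 to 930 symbols stood against 843 with every rat kept. The cause was not tested. The alternatives chosen after seeing the data were the fit without Ctns KO mouse 3 and the C1Q ratios within ranges. Adding 1 to values scaled to the upper quartile shrinks the mouse limma changes of low genes, whatever the depth. No paired analysis was possible because the labels do not say which animals are littermates.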
